A study of Mus musculus with 18 samples.

Results

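The genes of DNA replication licensing were followed in nascent RNA of WT and *Tet2*-KO mouse embryonic stem (mES) cells. The set holds 10 genes, *Mcm2*, *Mcm3*, *Mcm4*, *Mcm5*, *Mcm6*, *Mcm7*, *Mcm10*, *Cdc45*, *Cdc6* and *Cdt1*, out of 54446 genes in the deposited counts, and they were chosen by name, through their identifiers in GENCODE M21. Reads were counted on 9 of the 10, which were all among the 19910 genes with enough reads to be tested, and *Cdt1* was listed at 0 in all 18 libraries.

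Licensing is the step in late mitosis and G1 phase that prepares replication origins for use. The origin recognition complex binds DNA and, with *Cdc6* and *Cdt1*, loads the ring-shaped helicase made of the Mcm2 to Mcm7 proteins onto it in an inactive form. In S phase *Cdc45* and the GINS complex join a loaded ring to form the active helicase, and *Mcm10* takes part in its activation. Several of these genes are classical targets of E2F transcription factors, and mES cells, which divide quickly and have a short G1 phase, express them strongly.

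WT cells and cells labelled as *Tet2* knockouts, *Tet2* being a gene encoding a dioxygenase that oxidizes 5-methylcytosine, received 5-ethynyl uridine (EU) at 1 mM for 10, 20 or 40 min. EU enters newly made RNA, which is then captured and sequenced. There were 3 replicate libraries for each genotype at each time, 18 in all. Both genotypes were grown in serum with LIF and the inhibitors CHIR99021 and PD0325901 and were passaged on gelatin to clear feeder cells. The methods name 1 WT and 1 *Tet2*-/- line, so a replicate is a dish and not a clone, and a difference between genotypes cannot be told apart from a difference between the lines. P-values measure the spread between dishes.

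Levels are given on 2 scales. The level per 1000 ERCC reads relates a gene to reads of synthetic RNA. The study added that RNA after capture, in proportion to the total RNA of each sample. Differences between samples in EU uptake or capture enter this level and were not tested. The level includes a change that all genes share relative to total RNA. The share of gene reads, in CPM (reads of a gene per 1000000 gene reads), leaves out such a change and shows whether a gene moved more or less than the captured RNA as a whole. In bulk RNA, fewer cells in the phase that transcribes a gene and less of its RNA per cell cannot be told apart.

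Each library held 17931614 to 23069143 reads on genes and 44162 to 512186 on ERCC transcripts. Gene reads per ERCC read averaged 46.7, 147 and 247 in WT at 10, 20 and 40 min, against 95.4, 206 and 397 in libraries labelled *Tet2*-KO. They varied by 4.12 to 8.61% (coefficient of variation) between replicates. This spread is common to all genes of a library, so tests per ERCC read of different genes are not independent. *Tet2* itself took 589 to 741 CPM in WT and 530 to 643 in the libraries labelled *Tet2*-KO. Per 1000 ERCC reads it was higher in the latter, with 48.4 to 53.9 against 25.6 to 30.5 at 10 min, 112 to 126 against 96.1 to 110 at 20 min and 236 to 273 against 176 to 190 at 40 min. A count over the whole gene does not show which exons were removed, so it does not check the genotype labels. Summed markers of pluripotent cells took 2822 to 3007 CPM in WT and 2044 to 2169 in *Tet2*-KO, with 5 of 6 tested markers lower in average share (32% of all genes tested) and 1 higher (24.6%). *Sox2* was listed at 0 throughout and lies inside another gene of the same strand, as *Cdt1* does. Summed 2-cell-like markers took 18.3 to 30.0 CPM in WT against 2.11 to 4.61 in *Tet2*-KO. Summed markers of feeder fibroblasts took 16.7 to 46.9 and were highest in WT at 10 min. Their reads per library differed by gene, from 0 or 1 for *Lum* to 32 to 182 for *Col1a1* and 183 to 508 for *Fbn1*. Summed markers of primitive endoderm took 5.49 to 13.8 CPM. The part of these cell states in the results that follow was not tested.

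*Cdt1*, the licensing factor that escorts the Mcm ring to origins, could not be measured. It lies on chr8:122568015-122573554 (mm10, plus strand), inside the annotated span of *Gm20388* on the same strand, a gene model of 4434882 bp that received 5045 to 8329 reads per library. All 36 protein-coding genes of that strand inside *Gm20388* were listed at 0 in every library, against 0 of 35 on the opposite strand. Over the genome, 451 of 452 protein-coding genes inside another gene of the same strand were listed at 0 in all libraries, against 92 of 811 inside a gene of the opposite strand only and 1769 of 20655 that lie inside no other gene. *Cdt1* shares 0 exonic bases with *Gm20388*. The counts therefore behave as reads on whole gene spans, introns included and strand by strand, with reads shared by 2 genes dropped, and the value of 0 says nothing about transcription of *Cdt1*.

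The other 9 genes lie on 7 chromosomes and differ in length. On mm10, *Mcm2* spans chr6:88883474-88898780, *Mcm3* chr1:20802968-20820312, *Mcm4* chr16:15623897-15637400, *Mcm6* chr1:128331590-128359664, *Mcm7* chr5:138164583-138172422, *Mcm10* chr2:4989714-5012791 and *Cdc45* chr16:18780447-18811987, all on the minus strand. *Mcm5* spans chr8:75109569-75128439 and *Cdc6* chr11:98907801-98923940, on the plus strand. Exons cover from 11.1% of the span in *Cdc45* to 56.5% in *Mcm7*. The ends of *Mcm7* overlap *Cops6* and *Ap4m1*, and that of *Cdc45* overlaps *Ufd1*, in each case on the opposite strand.

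*Mcm7* is also the host of 3 microRNA genes, *Mir25*, *Mir93* and *Mir106b*, which lie on its strand inside its span and were listed at 0 in all libraries, as other genes inside a gene of the same strand were. Their mature sequences are shown because *Mcm7*, whose reads include the transcript that they are cut from, is the member with the largest rise averaged over the labelling times. Capitals mark the seed, bases 2 to 8 (RefSeq, GRCm38.p6). The arms miR-93-5p (chr5:138165574-138165596) and miR-106b-5p (chr5:138165787-138165807) share a seed, and miR-25-3p (chr5:138165332-138165353) has another.
miR-93-5p: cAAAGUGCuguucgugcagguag
miR-106b-5p: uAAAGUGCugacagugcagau
miR-25-3p: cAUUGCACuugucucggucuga

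RefSeq promoter windows of 300 bases, from 250 before to 50 after a start site, were found for 9 of the 10 genes, with 2 windows for *Mcm7* and none for *Mcm4*. They were searched on both strands for the E2F word TTNNCGC, in which each N is C or G, and for CCAAT, the core of the site of NF-Y. An E2F word was found in 7 of these 10 windows and in 9.57% of all 32851 windows, and CCAAT in 8 of 10 against 37.4%. E2F words overlapped each other in 4 of the 10 windows (*Mcm3*, *Mcm5*, *Mcm6* and the first of *Mcm7*) and in 41 of all windows (0.125%). The overlaps read TTGGCGCCAA in *Mcm3*, TTGGCGCGAA in both sites of *Mcm6* and TTCGCGCCAA in *Mcm5* and *Mcm7*. The windows of *Mcm2*, *Mcm10* and *Cdc45* held no E2F word, and those of *Cdc6* and *Cdt1* held 1 and 2. The start sites are those of RefSeq and can differ from the ends of the genes as annotated for the counts. The window of *Mcm5* ends at chr8:75109558, before the annotated gene begins at 75109569. Windows at other start sites could hold other words. The words are matches of letters only.

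The windows of *Mcm2* (chr6:88898731-88899030), *Mcm7* (chr5:138171834-138172133) and *Mcm6* (chr1:128359656-128359955), all on the minus strand of GRCm38.p6, are shown because the shares of *Mcm2* and *Mcm7* moved in opposite directions, and because *Mcm6* holds 2 overlapping sites. Of the genes with overlapping E2F words, *Mcm5* and *Mcm7* rose in average share and *Mcm3* and *Mcm6* fell. Of those without an E2F word, *Mcm2* and *Mcm10* fell and *Cdc45* rose. A link between words and direction was not tested. Capitals mark E2F words and CCAAT. In *Mcm7* the E2F site starts 18 bases after the start site and runs into a CCAAT word.
Mcm2 promoter: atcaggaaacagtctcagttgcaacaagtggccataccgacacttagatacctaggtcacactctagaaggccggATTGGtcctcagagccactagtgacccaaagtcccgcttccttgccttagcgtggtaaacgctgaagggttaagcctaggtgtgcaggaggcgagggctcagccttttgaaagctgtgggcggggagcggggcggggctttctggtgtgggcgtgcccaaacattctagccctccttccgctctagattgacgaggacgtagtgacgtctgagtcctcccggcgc
Mcm7 promoter: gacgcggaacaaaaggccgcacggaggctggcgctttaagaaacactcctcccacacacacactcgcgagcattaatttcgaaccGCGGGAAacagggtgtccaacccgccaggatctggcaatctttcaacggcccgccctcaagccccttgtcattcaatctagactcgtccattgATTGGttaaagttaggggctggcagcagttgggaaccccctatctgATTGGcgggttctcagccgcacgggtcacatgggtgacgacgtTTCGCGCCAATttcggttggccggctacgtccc
Mcm6 promoter: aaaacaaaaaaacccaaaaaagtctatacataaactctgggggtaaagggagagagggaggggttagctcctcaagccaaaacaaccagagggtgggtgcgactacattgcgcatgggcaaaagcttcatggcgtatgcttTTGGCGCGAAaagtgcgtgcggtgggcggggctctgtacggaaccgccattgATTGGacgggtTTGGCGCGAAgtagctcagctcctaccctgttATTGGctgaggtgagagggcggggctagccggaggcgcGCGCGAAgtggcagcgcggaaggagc

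Per kilobase of countable span, the shares of the genes of the helicase subunits were similar, and those of *Cdc6* and *Cdc45* were lower. In WT at 10 min the mean share was 12.5 CPM per kb for *Mcm7*, 12.4 for *Mcm3*, 10.9 for *Mcm5*, 10.4 for *Mcm2*, 9.51 for *Mcm6*, 8.91 for *Mcm4* and 7.35 for *Mcm10*. *Cdc6* followed at 3.16 and *Cdc45* at 2.17. The libraries of *Mcm7* and *Mcm3* overlapped. The order of the ring genes and *Mcm10* changed with labelling time and genotype. In WT at 40 min *Mcm2* (12.8), *Mcm3* (12.6) and *Mcm7* (12.5) overlapped at the head of the order. In *Tet2*-KO *Mcm7* led alone at each time, with 14.2, 14.8 and 13.8, and *Mcm2* was the sixth at 10 min with 8.07 and the fourth at 20 and 40 min with 9.16 and 9.90. *Cdc6* and *Cdc45* came last in all 6 groups. Spans hold introns and exons, and the order depended on the length used. Per kilobase of exon, the means in WT at 10 min were 57.3 CPM for *Mcm3*, 57.2 for *Mcm6*, 51.7 for *Mcm5* and 33.5 for *Mcm4*. The others were 22.9 for *Mcm2*, 22.1 for *Mcm10*, 21.4 for *Mcm7*, 19.5 for *Cdc45* and 9.75 for *Cdc6*.

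Relative to the spike-in, labelled RNA of every measured licensing gene was higher in *Tet2*-KO. Averaged over the labelling times, all 9 genes rose (edgeR's quasi-likelihood test, adjusted p under 0.05), where 80.5% of all genes tested rose and 4.15% fell. The median log2 fold change was 0.77 for the 9 genes and 0.70 for all genes. *Mcm7*, the subunit that pairs with Mcm4 in the ring, changed most, by 0.94 ± 0.054 (log2 fold change ± SE), and *Mcm2*, whose protein also binds histones, changed least, by 0.39 ± 0.052. The others lay between, with 0.89 ± 0.057 for *Cdc6*, 0.82 ± 0.055 for *Cdc45*, 0.79 ± 0.053 for *Mcm4*, 0.77 ± 0.051 for *Mcm5*, 0.65 ± 0.051 for *Mcm6*, 0.59 ± 0.051 for *Mcm10* and 0.58 ± 0.051 for *Mcm3*.

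*Mcm7* and *Mcm2*, the ends of this range, are given by library. *Mcm7* gave 4.48, 4.88 and 3.93 reads per 1000 ERCC reads in WT at 10 min and 10.1, 9.46 and 11.3 in *Tet2*-KO. At 20 min it gave 13.5, 14.0 and 13.2 against 21.1, 24.2 and 23.9, and at 40 min 23.2, 25.1 and 22.4 against 44.9, 36.9 and 43.2. No *Tet2*-KO library of *Mcm7* fell within the range of WT at the same time. *Mcm2* gave 7.47, 8.02 and 6.84 in WT at 10 min and 12.1, 11.0 and 12.3 in *Tet2*-KO. At 20 min its values were 25.6, 27.7 and 23.1 against 26.5, 30.8 and 29.4, and the genotypes overlapped. At 40 min they were 47.5, 49.5 and 48.2 against 64.6, 55.9 and 60.0, without overlap. The other 7 genes did not overlap between genotypes at any time, so that 8 of 9 genes were higher in all *Tet2*-KO libraries at all 3 times, against 51.6% of the genes tested.

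**Figure D1:**
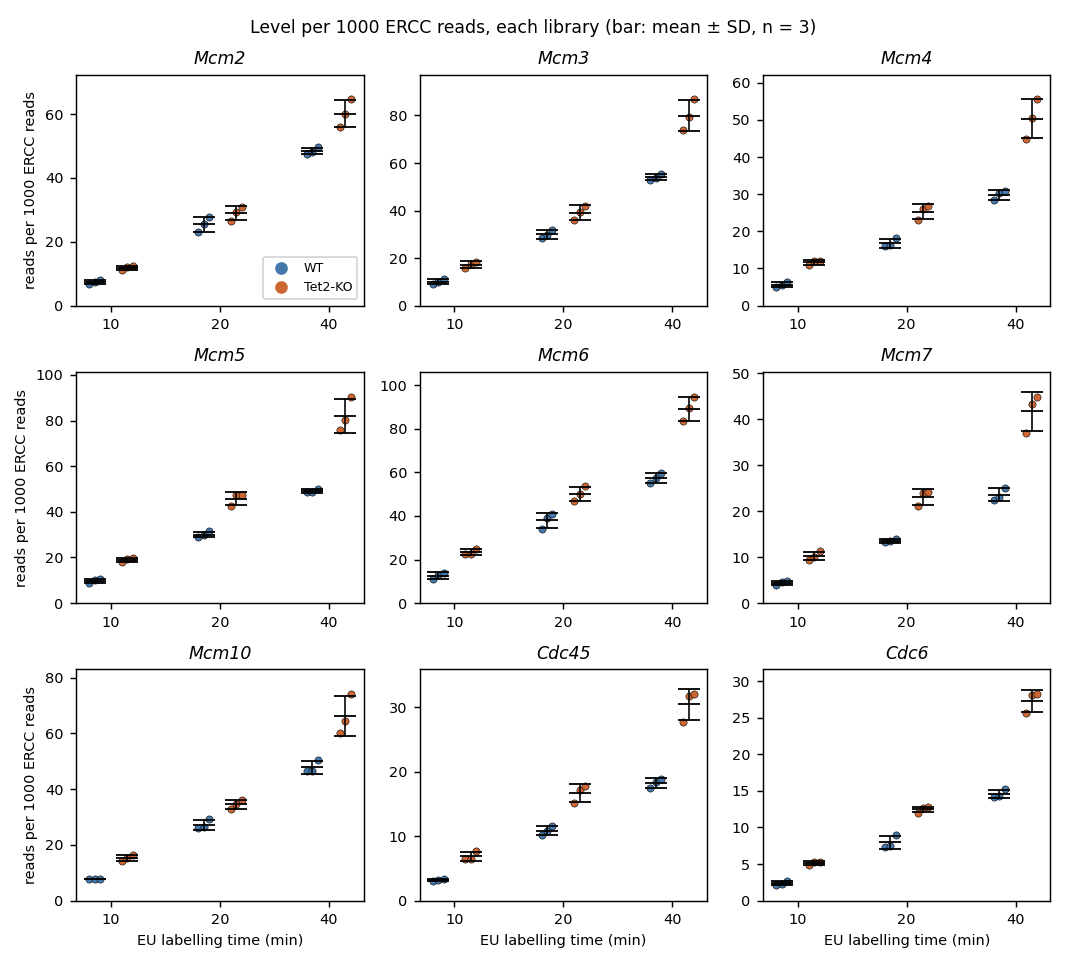
Reads per 1000 ERCC reads (vertical axis, from 0) of the 9 measured genes at 10, 20 and 40 min of EU labelling (equally spaced). Points are libraries of WT (blue) and *Tet2*-KO (orange), bars the mean ± SD of 3 replicates. Levels rise with time in every panel, and the genotypes overlap only for *Mcm2* at 20 min.

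At the single times, 9 genes rose at 10 min, where 79% of all genes rose and 2.1% fell. At 20 min 8 genes rose, against 53.7% and 4.86% of all genes, and at 40 min 9 rose, against 68.2% and 2.84%. The exception was *Mcm2* at 20 min, with a log2 fold change of 0.18 ± 0.089 and an adjusted p of 0.068 in edgeR's quasi-likelihood test. *Mcm7* stood at 1.21 ± 0.093, 0.77 ± 0.093 and 0.82 ± 0.093 at 10, 20 and 40 min. *Cdc6*, the ATPase that recruits the ring to the origin, stood at 1.11 ± 0.10, 0.65 ± 0.099 and 0.90 ± 0.098.

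As a share of gene reads the licensing genes divided. Averaged over time, *Mcm7*, *Cdc6*, *Cdc45*, *Mcm4* and *Mcm5* rose (5 of 9, against 24.6% of all genes) and *Mcm2*, *Mcm3*, *Mcm10* and *Mcm6* fell (4 of 9, against 32%). Smaller changes can be called in genes with more reads. The 9 genes had 970 to 6099 reads per library, and the genes tested include some with far fewer, such as *Ccnd2* with 6 to 58. The counts and percentages here and below therefore compare genes of unlike depth. The median log2 fold change was 0.040 for the 9 genes and -0.037 for all genes tested. The largest rise was 0.20 ± 0.023 for *Mcm7* and the largest fall -0.35 ± 0.018 for *Mcm2*. The quartiles of all genes tested were -0.29 and 0.19, and of the 9 genes these 2 lay outside them.

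**Figure D2:**
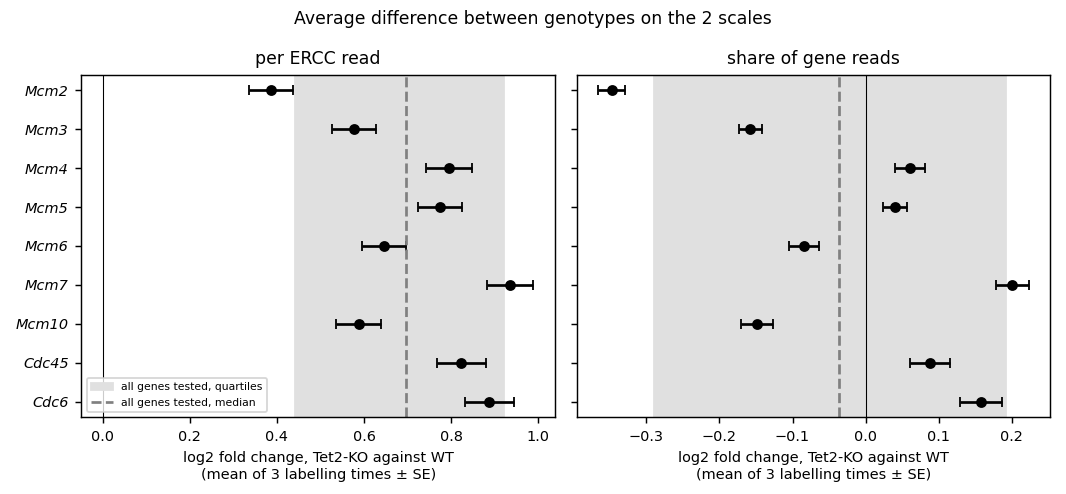
Log2 fold change of *Tet2*-KO against WT, averaged over 3 labelling times, per ERCC read (left) and as a share of gene reads (right). Points are the edgeR estimates with bars of 1 SE, the dashed line is the median and the grey band the quartiles of all 19910 genes. All 9 points are above 0 on the left and 5 are above 0 on the right, with *Mcm2* the lowest and *Mcm7* the highest on both.

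*Mcm2* had a lower share in *Tet2*-KO at each time. In CPM, WT libraries gave 161, 158 and 160 at 10 min, 177, 176 and 165 at 20 min and 195, 192 and 202 at 40 min. The corresponding *Tet2*-KO libraries gave 126, 123 and 122, then 138, 143 and 139, and then 151, 153 and 151. All *Tet2*-KO libraries lay below all WT libraries, even across times, where the highest *Tet2*-KO value was at 40 min and the lowest WT value at 10 min. The share of all genes with such a separation across times was not counted. The log2 fold changes were -0.37 ± 0.032, -0.30 ± 0.032 and -0.37 ± 0.031 at 10, 20 and 40 min, and *Mcm2* fell at all 3.

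*Mcm7* went the other way. Its WT libraries gave 96.2, 95.9 and 91.9 CPM at 10 min, 93.7, 88.8 and 94.0 at 20 min and 95.2, 97.0 and 93.4 at 40 min. The *Tet2*-KO libraries gave 105, 105 and 112, then 110, 112 and 113, and then 105, 101 and 109, above all WT libraries. This separation across times was not counted over all genes either. The log2 fold changes of 0.18 ± 0.039, 0.28 ± 0.039 and 0.14 ± 0.039 passed the test at each time.

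*Mcm3*, another subunit of the ring, fell at each time, by 0.25, 0.10 and 0.12 on the log2 scale. Its shares were 212, 219 and 214 CPM in WT at 10 min against 182, 176 and 184 in *Tet2*-KO, 205, 202 and 203 against 188, 195 and 187 at 20 min, and 220, 214 and 222 against 202, 202 and 200 at 40 min. The genotypes of *Mcm3* did not overlap at any time. With *Mcm2* it was 1 of 2 genes that were lower without overlap at all 3 times, where 13.9% of the genes tested were, and *Mcm7* and *Cdc6* were the 2 that were higher, against 11.8%.

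*Mcm4*, *Mcm5* and *Mcm6* differed little in share. *Mcm4* took 113 to 127 CPM in WT and 120 to 129 in *Tet2*-KO, with an average log2 fold change of 0.061 ± 0.021. *Mcm5* took 193 to 214 against 196 to 224, with 0.040 ± 0.017 and an adjusted p of 0.0448 in edgeR's quasi-likelihood test. That call was lost when any 1 of 12 of the 18 libraries was left out, with adjusted p from 0.0135 to 0.111 over all 18. It was also lost with protein-coding reads as library size (adjusted p = 0.125) and with no filter beyond 1 read (adjusted p = 0.0960). The call held without WT replicate 1 at 10 min, 3 at 20 min or 3 at 40 min, and without *Tet2*-KO replicate 3 at 10 min, 2 at 20 min or 3 at 40 min. *Mcm6* took 226 to 274 against 221 to 254, with -0.085 ± 0.020, and its call was lost with TMM normalization (adjusted p = 0.0745) and with DESeq2 (adjusted p = 0.0618).

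The calls at single times were fewer. At 10 min 1 gene rose (*Mcm7*, against 17.9% of all genes) and 3 fell (*Mcm2*, *Mcm3* and *Mcm6*, against 27.1%). With TMM normalization 3 rose and 2 fell, and the shares of all genes called with TMM were not counted. At 20 min *Mcm4*, *Mcm5*, *Mcm7*, *Cdc45* and *Cdc6* rose (17.6%) and *Mcm2*, *Mcm3* and *Mcm10* fell (20.7%). The 5 rises at 20 min became 3 without WT replicate 3 or without *Tet2*-KO replicate 2 of that time. At 40 min *Mcm7* and *Cdc6* rose (18.9%) and *Mcm2*, *Mcm3* and *Mcm10* fell (19.6%), and without *Tet2*-KO replicate 3 at 40 min 1 gene rose.

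**Figure D3:**
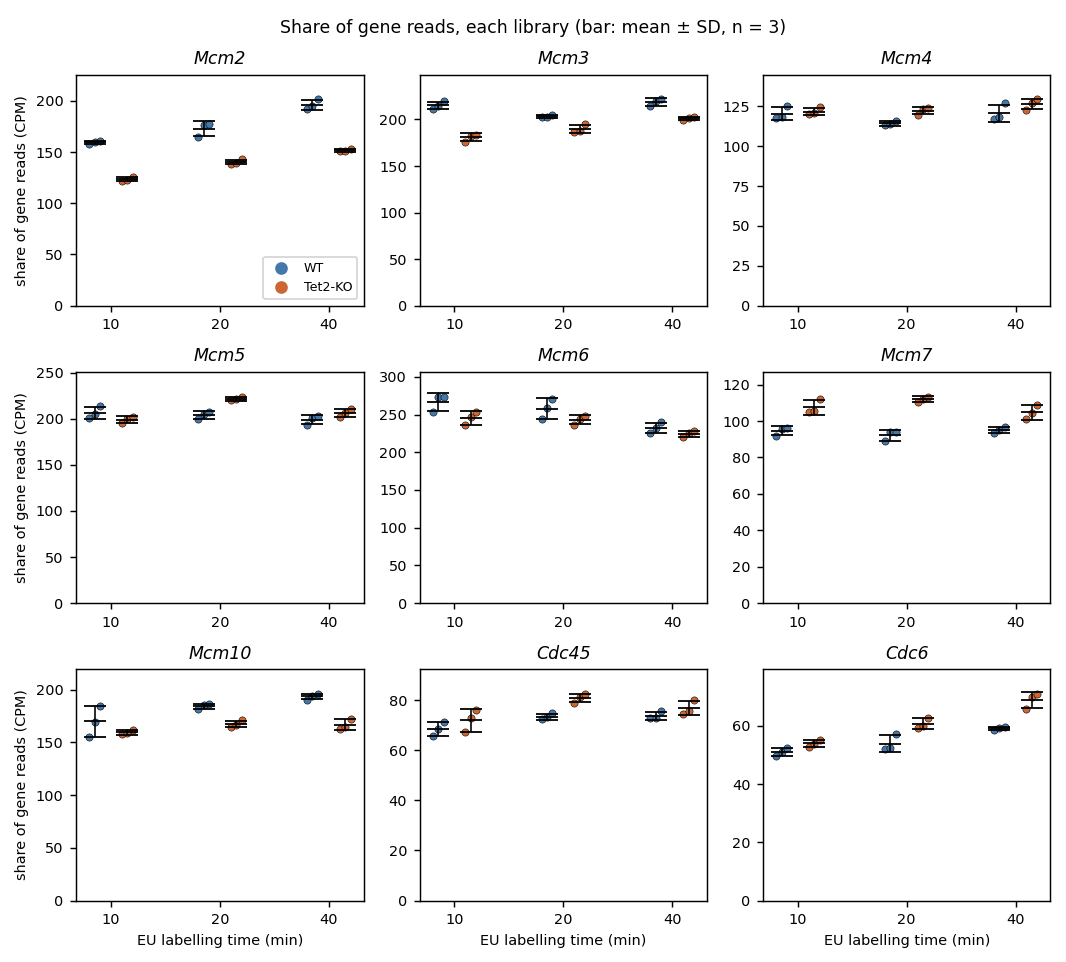
Share of gene reads in CPM (vertical axis, from 0) of the 9 measured genes at 10, 20 and 40 min of EU labelling (equally spaced). Points are libraries of WT (blue) and *Tet2*-KO (orange), bars the mean ± SD of 3 replicates. *Mcm2* and *Mcm3* are lower and *Mcm7* and *Cdc6* higher in *Tet2*-KO at each time, and *Mcm4*, *Mcm5* and *Mcm6* overlap at 10 and 40 min.

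The make-up of the reads on the 6 subunit genes differed between genotypes, and their sum was lower in *Tet2*-KO without overlap at 10 and 40 min. Of single genes tested, 27.1% and 26.8% were lower without overlap at these times, and sums of other genes were not counted. The genes did not fall together. At 40 min the mean share of *Mcm2* was 196 CPM in WT and 152 in *Tet2*-KO. Those of *Mcm3* and *Mcm6* were also lower, and those of *Mcm4*, *Mcm5* and *Mcm7* were higher. The sum was 1063 ± 21.6, 1045 ± 19.6 and 1062 ± 16.5 CPM (SD, n = 3) in WT at 10, 20 and 40 min and 978 ± 2.09, 1029 ± 11.7 and 1015 ± 2.45 in *Tet2*-KO. Of these reads *Mcm2* held 15.0 ± 0.377%, 16.5 ± 0.457% and 18.5 ± 0.201% in WT and 12.6 ± 0.245%, 13.6 ± 0.0672% and 14.9 ± 0.147% in *Tet2*-KO. *Mcm7* held 8.90 ± 0.0506%, 8.82 ± 0.319% and 8.96 ± 0.304% in WT and 11.0 ± 0.376%, 10.9 ± 0.168% and 10.3 ± 0.394% in *Tet2*-KO. *Mcm6* held the most reads in all groups, from 21.9% to 25.1% on average, with the longest span of the 6.

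**Figure D4:**
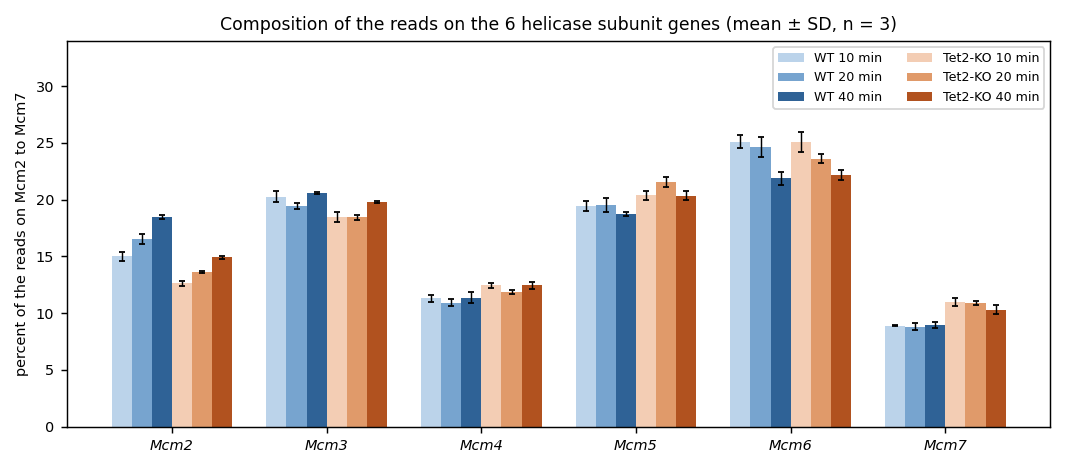
Percent of the reads on *Mcm2* to *Mcm7* that each gene held (vertical axis, from 0), as the mean of 3 replicates with bars of 1 SD, for WT (blue) and *Tet2*-KO (orange) at 10, 20 and 40 min. *Mcm2* is lower and *Mcm7* higher in *Tet2*-KO at each time, and the share of *Mcm2* grows with time in both genotypes.

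The ratio of *Mcm7* to *Mcm2* reads sets the pair with the largest opposite changes side by side. The pair was picked after its values were seen, so the ratio is a description without a test. Neither the spike-in nor the total of gene reads enters it. The log2 ratio was -0.75 ± 0.042, -0.91 ± 0.092 and -1.04 ± 0.063 (SD, n = 3) in WT at 10, 20 and 40 min and -0.20 ± 0.072, -0.32 ± 0.024 and -0.53 ± 0.063 in *Tet2*-KO. It ranged from -1.11 to -0.72 over the 9 WT libraries and from -0.60 to -0.12 over the 9 *Tet2*-KO libraries. The mean difference was 0.55, a ratio 1.46 times higher in *Tet2*-KO, with 0.55, 0.58 and 0.51 at the single times.

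*Cdc6*, the loader of the ring, had a higher share in *Tet2*-KO. WT libraries gave 49.6, 52.3 and 51.1 CPM at 10 min, 52.1, 57.3 and 52.3 at 20 min and 58.7, 59.1 and 59.5 at 40 min. *Tet2*-KO libraries gave 55.2, 53.8 and 52.7, then 62.7, 59.1 and 60.0, and then 65.8, 70.0 and 70.8. The genotypes did not overlap at any time, although the closest libraries at 10 min were 52.3 in WT and 52.7 in *Tet2*-KO. The average log2 fold change was 0.16 ± 0.029, with 0.081 ± 0.050 at 10 min (not called), 0.17 ± 0.050 at 20 min and 0.22 ± 0.049 at 40 min.

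Of the 2 genes that act when the helicase is switched on, *Cdc45* rose in share and *Mcm10* fell. *Cdc45* took 65.7 to 75.7 CPM in WT and 67.1 to 82.4 in *Tet2*-KO, with an average log2 fold change of 0.088 ± 0.027, and its genotypes overlapped at 10 and 40 min. *Mcm10* gave 169, 155 and 184 in WT at 10 min against 158, 159 and 162 in *Tet2*-KO, and these overlapped. At 20 min it gave 182, 186 and 185 against 171, 167 and 165, and at 40 min 190, 196 and 194 against 173, 164 and 163, without overlap. Its average log2 fold change was -0.15 ± 0.022.

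Labelled RNA of all 9 genes rose with labelling time per ERCC read, as that of nearly all genes did. From 10 to 40 min all 9 rose in WT (96.7% of all genes) and in *Tet2*-KO (94.7%). The mean levels rose from 4.59-fold for *Mcm6* to 6.51-fold for *Mcm2* in WT and from 3.81-fold for *Mcm6* to 5.31-fold for *Cdc6* in *Tet2*-KO. From 10 to 20 min the mean level of *Mcm2* rose 3.42-fold in WT and 2.45-fold in *Tet2*-KO, and from 20 to 40 min 1.90-fold and 2.08-fold.

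In share, *Mcm2* and *Cdc6* rose from 10 to 40 min in both genotypes and *Mcm6* fell in both. *Mcm2* rose by 0.30 ± 0.031 in WT and 0.30 ± 0.033 in *Tet2*-KO on the log2 scale, and *Cdc6* by 0.21 ± 0.050 and 0.35 ± 0.050. *Mcm6* fell by 0.20 and 0.13. In WT *Mcm10* also rose, by 0.19 ± 0.038, and in *Tet2*-KO *Mcm3* did, by 0.15 ± 0.028. That made 3 higher and 1 lower in WT, against 16.1% and 29.5% of all genes, and 3 higher and 1 lower in *Tet2*-KO, against 16.5% and 20%. The median gene fell by 0.14 in WT and by 0.057 in *Tet2*-KO on this scale. With TMM normalization 7 genes rose and 1 fell in WT and 7 rose and 0 fell in *Tet2*-KO. The shares of all genes called with TMM were not counted, so the percentages above do not apply to these counts.

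The slope of the level per 1000 ERCC reads on labelling time was higher in *Tet2*-KO for all 9 genes. The study fitted its lines to levels that a fit of the ERCC spike-in had converted to attomoles, so its slopes and these rest on different inputs. Slopes in reads per 1000 ERCC reads per min (± SE of the fitted line, 9 libraries) were 1.34 ± 0.0717 in WT and 1.61 ± 0.0714 in *Tet2*-KO for *Mcm2*, a ratio of 1.20. *Mcm7* had 0.617 ± 0.0444 and 1.03 ± 0.0737, a ratio of 1.67, and *Cdc6* had 0.396 ± 0.0264 and 0.739 ± 0.0222, a ratio of 1.87. The other ratios were 1.31 for *Mcm10*, 1.46 for *Mcm3*, 1.52 for *Mcm6*, 1.60 for *Cdc45*, 1.63 for *Mcm5* and 1.64 for *Mcm4*. The median log2 ratio was 0.68 for the 9 genes and 0.64 for all genes tested. It depended on the times used, with 0.28 from 10 and 20 min alone and 0.90 from 20 and 40 min alone. On the early pair the log2 ratio of *Mcm2* was -0.074.

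The difference between genotypes per ERCC read was smaller at 40 than at 10 min for 4 genes, *Mcm10*, *Mcm7*, *Cdc45* and *Mcm2*, where 19.3% of all genes tested showed a smaller one and 0.552% a larger one. The median change over all genes was -0.29. The count was 2 with a replicate block. It was 1 without WT replicate 3 at 10 min, WT replicate 2 at 40 min, *Tet2*-KO replicate 3 at 10 min or *Tet2*-KO replicate 2 at 40 min, and 2 without WT replicate 1 at 10 min, WT replicate 1 at 40 min or *Tet2*-KO replicate 3 at 40 min. In share the difference changed for 1 gene, *Mcm3*, by 0.13 ± 0.039, against 5.89% of all genes higher and 3.36% lower. That call was lost without WT replicate 2 at 10 or at 40 min, and without *Tet2*-KO replicate 2 at 10 min or replicate 1 or 2 at 40 min.

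The other genes of the pathway come from lists made by function. In the origin recognition complex all 6 genes rose per ERCC read (80.5% of all genes), and in share 2 of 6 rose (24.6%) and 0 fell (32%). These were *Orc2* (0.11 ± 0.021) and *Orc4* (0.11 ± 0.025), while *Orc1*, *Orc3*, *Orc5* and *Orc6* were between -0.052 and 0.023. The median of the 6 in share was 0.017, beside -0.037 for all genes.

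Among 5 genes of licensing control, all rose per ERCC read (80.5% of all genes), and in share 2 rose (24.6%) and 1 fell (32%), with a median of -0.016. *Gmnn*, which encodes geminin, the inhibitor of Cdt1, fell by 0.081. *Lrwd1*, which encodes a partner of the origin recognition complex, rose by 0.20 ± 0.036 and *Mcmbp*, which encodes an Mcm-binding protein, by 0.068 ± 0.020. *Cdc7* and *Dbf4*, the kinase that triggers the loaded ring and its activator, had -0.016 ± 0.037 and -0.024 ± 0.017 and were not called.

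Of 9 genes of helicase activation, all rose per ERCC read (80.5% of all genes), and in share 2 rose (24.6%) and 2 fell (32%), with a median of -0.018. *Ticrr*, which encodes treslin, the factor that brings Cdc45 to the ring, rose by 0.39 ± 0.013, more than any of the 9 licensing genes, and its partner *Mtbp* rose by 0.059 ± 0.021. *Gins1* and *Gins4*, subunits of GINS, fell by 0.13 and 0.15, while *Gins2* and *Gins3* had -0.046 ± 0.053 and -0.018 ± 0.069. *Topbp1*, *Recql4* and *Donson* were not called.

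The 3 relatives of the ring genes that act outside licensing all fell in share, as 32% of all genes did. *Mcm8* and *Mcm9*, which form a helicase of recombination repair, fell by 0.18 and 0.21, and *Mcmdc2*, a meiotic gene, by 0.80. Per ERCC read *Mcm8* and *Mcm9* rose by 0.55 ± 0.059 and 0.53 ± 0.053, and *Mcmdc2* had -0.064 ± 0.10 and was not called.

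**Figure D5:**
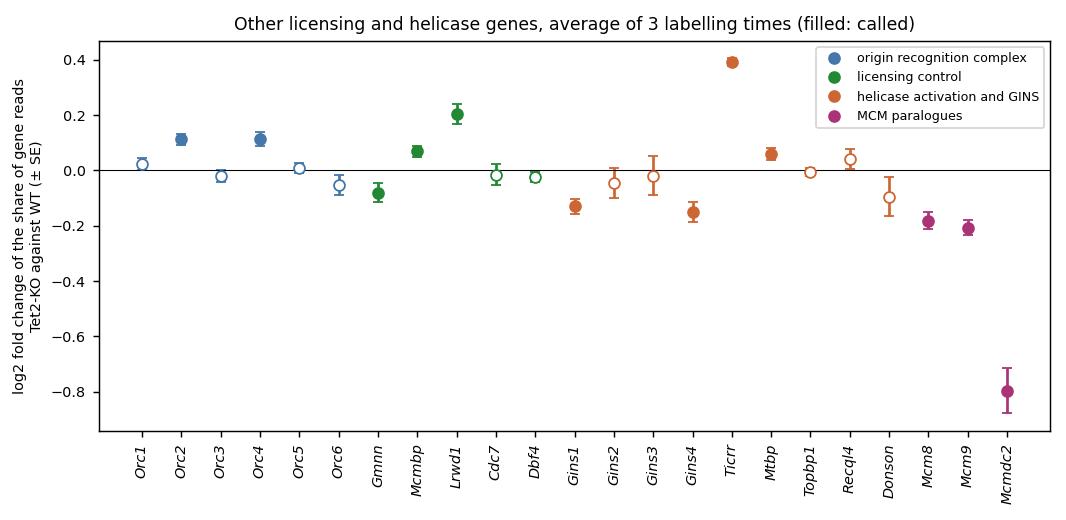
Log2 fold change of the share of gene reads, *Tet2*-KO against WT, averaged over 3 labelling times, for 23 genes in 4 groups (colours). Points are the edgeR estimates with bars of 1 SE, and filled points passed the test at an adjusted p under 0.05. Most points lie within 0.2 of 0, with *Ticrr* at 0.39 and *Mcmdc2* at -0.80.

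Genes of the replication fork and of DNA synthesis moved in both directions in share. Of 33 genes, 10 rose (24.6% of all genes) and 11 fell (32%), with a median of -0.030, and 32 rose per ERCC read (80.5%). The highest were *Rfc2* (0.23 ± 0.041), a subunit of the clamp loader, and *Pole* (0.23 ± 0.017), the leading-strand polymerase. The lowest were *Rrm2* (-0.30 ± 0.040), a subunit of ribonucleotide reductase, and *Rfc3* (-0.29 ± 0.056). Of 23 regulators of the G1/S transition, 6 rose (24.6% of all genes) and 14 fell (32%), with a median of -0.12 beside -0.037 for all genes, and 22 rose per ERCC read (80.5%). The highest were *Tfdp2* (0.35 ± 0.019) and *E2f2* (0.34 ± 0.057), which encode a DP partner of E2F and an activating E2F. The lowest were *Ccnd2* (-0.77 ± 0.20), a D-type cyclin, and *Cdkn1b* (-0.53 ± 0.084), the CDK inhibitor p27.

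The licensing genes varied together only in part in share. Over the 18 libraries, Pearson's r between a gene's log2 share and the mean of the 9 ran from -0.35 for *Mcm6* and -0.18 for *Mcm7* to 0.73 for *Mcm2*. It was 0.097 for *Mcm4*, 0.23 for *Mcm5*, 0.48 for *Cdc45*, 0.54 for *Cdc6*, 0.59 for *Mcm10* and 0.61 for *Mcm3*. Each of the 9 genes is itself part of that mean. The other genes tested whose log2 share was most like that mean were *Hmgxb3* (r = 0.95), *Zfp944* (0.94), *Zfp445* (0.94), *Nap1l4* (0.94) and *Pcnp* (0.94). The libraries share their 6 groups, so these values describe the groups as much as the libraries.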

How the data were processed

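Nascent RNA was measured in 18 libraries, 3 for each of 6 groups of genotype and labelling time, as the sample labels give them. The authors trimmed reads with Trimmomatic 0.39, aligned them to mm10 with HISAT2 2.2.1 and counted them with HTSeq 0.12.4 on GENCODE M19 genes and 92 ERCC transcripts, and the deposited values are raw counts without normalization. The feature type and overlap mode of HTSeq are not given in the sources used here. Rows without a gene stayed out of totals: 13.2 to 16.9% of reads in no feature, 2.32 to 2.50% ambiguous and 5.24 to 5.99% not uniquely aligned. Of 54446 gene identifiers, 54409 were found in GENCODE M21 on the same build.

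Genes were kept by filterByExpr (minimum count 10), which left 19910. One edgeR 4.0.16 fit (R 4.3.3) of 6 groups used quasi-likelihood tests with Benjamini-Hochberg adjustment at 0.05, with library sizes equal to ERCC reads or to all gene reads. Standard errors are the absolute log2 fold change over the square root of F. Slopes are least-squares lines with an intercept. Reads carry no molecular identifiers, so precision from read counts covers counting error only. Libraries of a group were compared, and none was a copy of another.

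The genes, the lists and the promoter words were chosen with earlier results of these data known. The genes named are the 10 genes, the 4 short lists of the pathway, the 2 highest and 2 lowest called genes in share of the 2 long lists, and the 5 genes most like the mean of the log2 shares (log2 of CPM + 1). Replicate numbers were not taken to pair samples, because deviations of libraries with the same number correlated between -0.11 and 0.11 (45 pairs, median -0.0013). Alternatives were TMM, DESeq2 1.42.0, other filters, other library sizes, a replicate block, single times, and each library left out in turn.

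On simulated data for the average comparison (19910 genes), edgeR recovered 95 of 100 genes changed by 1 on the log2 scale in share. Per ERCC read edgeR recovered 92 of 100. Of 100 genes changed by 0.25, edgeR recovered 38 in share and 33 per ERCC read, with 8 and 5 unchanged genes called. In the deposited libraries 80.5% of genes were called higher per ERCC read. How many unchanged genes are called where most genes change was not tested.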

Additional observations from a re-analysis of the deposited data

Results flagged for a closer look

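For 5 values the difference between genotypes was not the same at 10 and at 40 min of labelling, by the interaction term of edgeR's quasi-likelihood fit over all 18 libraries. Per ERCC read the log2 difference of *Tet2*-KO to WT changed from 10 to 40 min by -0.48 ± 0.13 (SE) for *Mcm10* (adjusted p = 0.00352), by -0.39 ± 0.13 for *Mcm7* (adjusted p = 0.0229), by -0.36 ± 0.14 for *Cdc45* (adjusted p = 0.0408) and by -0.35 ± 0.13 for *Mcm2* (adjusted p = 0.0349). The median change on this scale was -0.29 for the 9 genes and -0.29 for all genes, and 19.3% of all genes tested showed a smaller difference. In share of gene reads the change was 0.13 ± 0.039 for *Mcm3* (adjusted p = 0.0313), whose log2 difference went from -0.25 at 10 min to -0.12 at 40 min. On that scale 5.89% of all genes were higher. With 1 library left out, the genes called lower per ERCC read numbered 1 to 6 and those called higher in share 0 to 1.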

How the results depend on the processing

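Per ERCC read, the counts of genes higher in *Tet2*-KO kept within 1.5 times of those reported under every alternative run. Of 692 alternative values of counts and medians, 659 did so or stayed within the spread and 33 moved, and the causes were not tested. The number of genes whose difference per ERCC read was smaller at 40 min went from 4 to 2 with no filter beyond 1 read and to 2 with the replicate block, and from 1 to 6 with 1 library left out. The replicate block moved no other count by over 1.5 times. In share at 10 min, 3 genes instead of 1 rose with TMM and with DESeq2. The shares of all genes called under the alternatives were not counted. The change of the difference in share called 0 genes higher with TMM, DESeq2 or no filter and 1 lower with TMM or DESeq2, against 1 and 0, and 0 to 1 of either with 1 library left out. From 10 to 40 min in share, 7 genes rose in WT with TMM and with DESeq2 instead of 3, and in *Tet2*-KO 7 with TMM and 5 with DESeq2 instead of 3, with 0 lower instead of 1. With 1 library left out, the genes that rose in share numbered 3 to 5 at 20 min and 1 to 3 at 40 min. The median log2 ratio of slopes was 0.28 from 10 and 20 min, where that of *Mcm2* turned to -0.074, and 0.90 from 20 and 40 min.

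Single genes that changed sign in share were not called either way. *Mcm5* at 10 min had 0.018 with TMM and with DESeq2, and from 10 to 40 min in WT 0.049 and 0.045. *Mcm4* had -0.0063 and -0.013 for the change of the difference and -0.0018 in WT from 10 to 40 min with protein-coding reads as library size. *Mcm7* from 10 to 40 min in *Tet2*-KO had 0.0075 with TMM. *Mcm2* had 0.00088 for the change of the difference with protein-coding reads. With 1 library left out, that change ran from -0.021 to 0.015 for *Mcm2* and from -0.063 to 0.027 for *Cdc45*, and in WT from 10 to 40 min the value ran from -0.034 to 0.032 for *Mcm4* and from -0.013 to 0.021 for *Mcm7*. The smallest counts among the 9 genes were those of *Cdc6*, 970 to 1415 reads per library, and its average log2 share had an SE of 0.029.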
